A study of Mus musculus with 16 samples.

Results

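The genes described here are 32 genes of the unfolded protein response and of the amino acid stress response, followed through mouse colonic epithelial cells that differed in their supply of secretory IgA and in exposure to a colitis-inducing agent. They were taken by symbol from a list: chaperones and folding enzymes of the endoplasmic reticulum (14 genes), proteins of entry into and disposal from it (6), stress sensors (4), transcription factors (3) and targets of the transcription factor Atf4 (5). All 32 of the 32 were measured, out of 19938 genes tested, through 36 probe sets that the platform annotation assigns to a single gene. No filter on low values was used.

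The study asked how secretory IgA (SIgA) from the mother and from the offspring shapes the colon and its answer to injury. C57BL/6 mice were either Pigr+/- or Pigr-/-. Pigr encodes the receptor that carries IgA across the epithelium, so Pigr+/- offspring can transport their own (active) SIgA and Pigr-/- offspring cannot. Pigr+/- dams passed SIgA on in milk (passive SIgA) and Pigr-/- dams did not. The 4 resulting groups were Pigr+/- offspring of Pigr+/- dams (passive and active SIgA), Pigr-/- offspring of Pigr+/- dams (passive only), Pigr+/- offspring of Pigr-/- dams (active only) and Pigr-/- offspring of Pigr-/- dams (neither). No group had wild-type dams or offspring, so every control mouse also carried at least 1 Pigr mutant allele. At 70 days of age the mice of each group were untreated or had received 2% dextran sulfate sodium (DSS, which injures the colonic epithelium) in drinking water for 8 days. Each of the 8 conditions had 2 arrays, and each array carried RNA pooled from 3 mice, so spreads between arrays are spreads between pools and not between mice. Passive SIgA was a property of the dam, and effects of the litter cannot be told apart from it.

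The endoplasmic reticulum folds secreted and membrane proteins. When unfolded protein builds up there, the sensors Ern1 (also called IRE1), its relative Ern2 of mucus-secreting epithelia, Eif2ak3 (PERK) and Atf6 raise the capacity to fold protein and to dispose of it. Ern1 splices the messenger RNA of Xbp1, Atf6 is cleaved into a transcription factor, and Eif2ak3 slows translation while raising Atf4 protein, which in turn drives Ddit3 (CHOP) and genes of amino acid supply. Shortage of amino acids raises Atf4 protein through another kinase, Eif2ak4. Colonic goblet cells secrete large amounts of mucin and rely on this machinery. Splicing, cleavage and phosphorylation are not read by these probe sets, which report transcript levels alone.

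Levels are log2 values, so that a difference of 1 is a doubling, and levels of different genes cannot be compared. The median over all probe sets lay between 6.68 and 6.83 in the 16 arrays. Epithelial markers were strong in all of them (Epcam 12.35 to 12.67, Krt8 14.10 to 14.29). Pigr itself followed the offspring genotype (Pigr-/- minus Pigr+/- -0.85 ± 0.05, SE, adjusted p = 9.77e-06): the group means were 12.26 to 12.45 in Pigr+/- and 11.37 to 11.69 in Pigr-/- offspring. The untreated pair of arrays with both SIgA sources differed from the rest. Averaged over 1251 genes for olfactory, vomeronasal and trace amine receptors and keratin-associated proteins, their levels were 5.25 and 5.41, beside 4.44 to 4.87 in the other 14 arrays. The highest of these 14, at 4.87, was untreated replicate 1 of active SIgA only. Results are therefore also given without that untreated group, and without these 3 arrays.

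DSS raised most of the chaperones and folding enzymes among the 32 genes, while none of the 3 transcription factors passed the test. Averaged over the 4 SIgA groups (8 DSS arrays against 8 untreated arrays), 14 of the 32 genes rose and 1 fell, at an adjusted p under 0.05 in limma. Of all genes tested, 6.40% rose and 6.73% fell. In such bulk RNA, fewer cells of a type and less RNA per cell cannot be told apart. The median difference was 0.22 for the 32 genes and 0.00 for all genes. The rises were 11 of the 14 chaperones and folding enzymes, the sensor Atf6, and the Atf4 targets Asns and Psat1. The fall was the sensor Ern2. The sign of the difference was the same in all 4 SIgA groups for 19 genes that were higher and 2 that were lower, while 13.0% and 12.0% of all genes had such a uniform sign. The changes were moderate: the largest, in Sdf2l1 and Creld2, was a factor of 1.52. Without the untreated pair with both sources of SIgA, 9 rose and 1 fell (2.88% and 3.19% of all genes), all of them among the 15. Without the 3 arrays that stood apart 7 rose and 1 fell (2.50% and 3.05% of all genes), and all 8 were among the 15. Of the 14 chaperones and folding enzymes, 7 rose without that untreated pair and 5 without the 3 arrays.

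**Figure D1:**
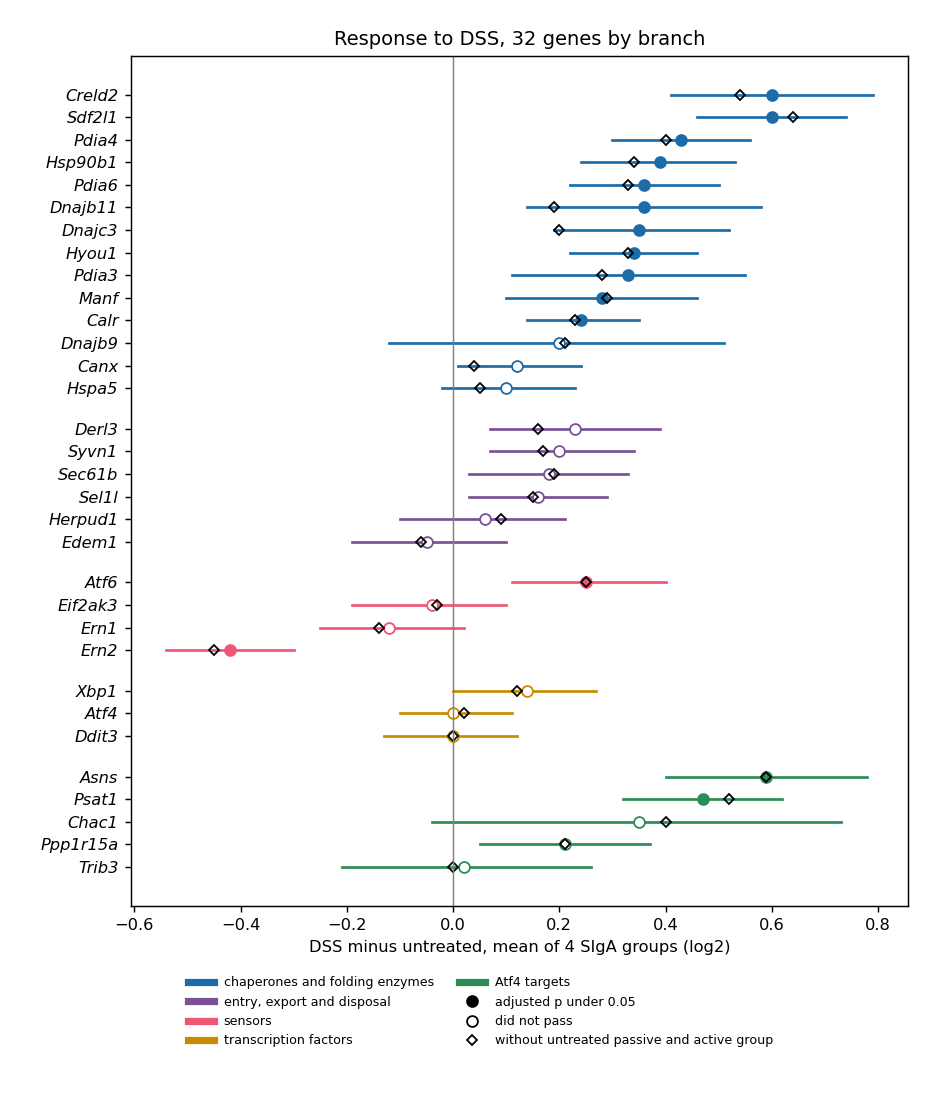
Difference between DSS and untreated arrays for each of the 32 genes, averaged over the 4 SIgA groups (x axis, log2; circles with 95% confidence intervals, filled where the adjusted p was under 0.05), and the same difference without the untreated pair with both sources (diamonds). The chaperones reach from 0.10 for Hspa5 to 0.60 for Sdf2l1 and Creld2, Ern2 lies at -0.42, and Atf4 and Ddit3 lie at 0.00.

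Some of the 32 genes share a control element in their promoters, and the sequences below show it for those in which it was found. The endoplasmic reticulum stress element (ERSE), to which Atf6 is known to bind together with the factor NF-Y, reads CCAAT, then any 9 bases, then CCACG. It was searched on both strands of the RefSeq promoter windows of the assembly GRCm38.p6, from 250 bases before a gene's start to 50 after it, and 28 of the 32 genes were matched to a window. It was found in 9 of these 28 genes and in 37 of all 27025 genes with a window (0.137%). The 9 are chaperones and folding enzymes and the disposal genes Derl3 and Syvn1. Among the chaperones and folding enzymes that rose, Sdf2l1, Pdia4, Pdia3 and Dnajb11 had a window without a match. Hyou1 and Manf, which also rose, had no window. A match is a description of the letters in the window and not evidence of binding. The 5 genes with a match that rose are shown first, 5′ to 3′ on the gene's own strand, with the match in capitals.
Hsp90b1, chr10:86705518-86705566, minus strand: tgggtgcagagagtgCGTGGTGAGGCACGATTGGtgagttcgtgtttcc
Creld2, chr15:88819505-88819553, plus strand: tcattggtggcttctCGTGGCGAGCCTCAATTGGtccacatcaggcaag
Dnajc3, chr14:118937812-118937860, plus strand: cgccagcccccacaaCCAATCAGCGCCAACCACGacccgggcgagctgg
Pdia6, chr12:17266476-17266524, plus strand: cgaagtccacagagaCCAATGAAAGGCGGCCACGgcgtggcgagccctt
Calr, chr8:84847060-84847108, minus strand: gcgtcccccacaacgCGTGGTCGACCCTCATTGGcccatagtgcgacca
The next 4 hold the same element in genes that did not pass the test.
Hspa5, chr2:34772010-34772058, plus strand: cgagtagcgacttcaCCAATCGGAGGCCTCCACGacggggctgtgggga
Canx, chr11:50325785-50325833, minus strand: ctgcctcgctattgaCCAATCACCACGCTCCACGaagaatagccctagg
Derl3, chr10:75893227-75893275, plus strand: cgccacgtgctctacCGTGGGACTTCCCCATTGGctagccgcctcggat
Syvn1, chr19:6046517-6046565, plus strand: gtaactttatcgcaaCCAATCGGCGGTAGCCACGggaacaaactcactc
All of them lie upstream of the start, between 212 bases before it (a further match in Hsp90b1) and 26 bases before it (Syvn1). In Hsp90b1, Creld2, Calr and Derl3 the capitals read as the reverse complement of the element.

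Of the 21 measured genes whose window held the ERSE, 7 rose with DSS and none fell, with a median difference of 0.14. Of all genes tested, 6.40% rose and 6.73% fell. The 9 members had a median of 0.24 and the other 12 genes one of 0.03. The 2 rises among these 12, named after their values were seen, were Acacb (0.32, adjusted p = 0.00988) and Zfp57 (0.39, adjusted p = 0.0107). A related element, ERSE-II (ATTGG, any base, CCACG), was in 12 of the 27025 genes (0.0444%) and among the 32 in Dnajb11, which rose, and Herpud1, which did not pass. The element TGACGTGG, which is one of the elements known to be bound by Xbp1, was in 193 genes (0.714%) and in none of the 28. The 3 elements share the letters CCACG on one strand or the other, so their matches can overlap, but no matches overlapped in the 32 genes. Other forms of each element were not searched.

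Among the chaperones and folding enzymes, 6 genes had no overlap between the 8 untreated and the 8 DSS arrays, all higher with DSS, while 1.58% of all genes had such a separation upward and 1.30% downward. Sdf2l1, a partner of the Hspa5 chaperone system, had untreated levels of 9.06 to 9.57 (median 9.32) and DSS levels of 9.74 to 10.07 (median 9.91). Its difference was 0.60 ± 0.06 (SE, adjusted p = 4.55e-05), and 0.64 (adjusted p = 2.53e-04) without the untreated group that stood apart. Creld2, a secreted stress-inducible protein of the endoplasmic reticulum, went from 9.51 to 10.05 (median 9.73) in untreated arrays to 10.16 to 10.56 (median 10.33) after DSS, a difference of 0.60 ± 0.09 (adjusted p = 5.97e-04). The lowest DSS array thus lay above the highest untreated array for both genes.

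The disulfide isomerase Pdia4 had untreated levels of 10.49 to 11.01 (median 10.77) and DSS levels of 11.15 to 11.40 (median 11.19), a difference of 0.43 ± 0.06 (adjusted p = 4.10e-04). A weaker second probe set of Pdia4 gave 0.22 ± 0.07 (adjusted p = 0.0449). Hsp90b1 (GRP94), which folds receptors and integrins, had 11.79 to 12.20 (median 12.05) untreated and 12.25 to 12.49 (median 12.41) after DSS, a difference of 0.39 ± 0.07 (adjusted p = 0.00193). Both isomerase and chaperone again separated completely. Hyou1, a nucleotide exchange factor for Hspa5, rose by 0.34 ± 0.06 (adjusted p = 0.00146) from 9.35 to 9.76 (median 9.54) to 9.80 to 10.08 (median 9.90). Calr, the lectin chaperone calreticulin, rose by 0.24 ± 0.05 (adjusted p = 0.00442) from the narrow range of 11.75 to 11.88 (median 11.84) to 12.02 to 12.13 (median 12.06). Without the 3 arrays that stood apart the difference of Calr was 0.21 (adjusted p = 0.075) and no longer passed.

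The other 5 rises in this branch overlapped between treatments. Pdia6, another disulfide isomerase, rose by 0.36 ± 0.07 (adjusted p = 0.00279), with untreated levels up to 9.56 and DSS levels from 9.52, and did not pass without the 3 arrays (0.31, adjusted p = 0.0549). The rises of the Hspa5 co-chaperones Dnajc3 (0.35 ± 0.08, adjusted p = 0.00793) and Dnajb11 (0.36 ± 0.10, adjusted p = 0.0319) leaned on the group that stood apart. Dnajb11 was 9.09 and 9.12 there and 9.61 to 9.98 in the other 6 untreated arrays, and Dnajc3 was 9.35 and 9.45 there and 9.78 to 9.98 in the other 6. Without that group the differences were 0.19 (adjusted p = 0.51) for Dnajb11 and 0.20 (adjusted p = 0.294) for Dnajc3. Manf, a secreted survival factor (0.28 ± 0.08, adjusted p = 0.0389), and Pdia3, the isomerase of the calnexin cycle (0.33 ± 0.10, adjusted p = 0.0480), were also lost without it, at 0.29 (adjusted p = 0.118) and 0.28 (adjusted p = 0.251).

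Hspa5 (BiP), the master chaperone of the compartment, did not pass the test. Its untreated levels were 12.75 to 13.24 (median 13.07) and its DSS levels 12.99 to 13.33 (median 13.11). The difference was 0.10 ± 0.06 (95% interval -0.02 to 0.23, adjusted p = 0.303). The membrane-bound lectin chaperone Canx (0.12 ± 0.05, adjusted p = 0.146) and the co-chaperone Dnajb9 (0.20 ± 0.15, adjusted p = 0.448) did not pass either.

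**Figure D2:**
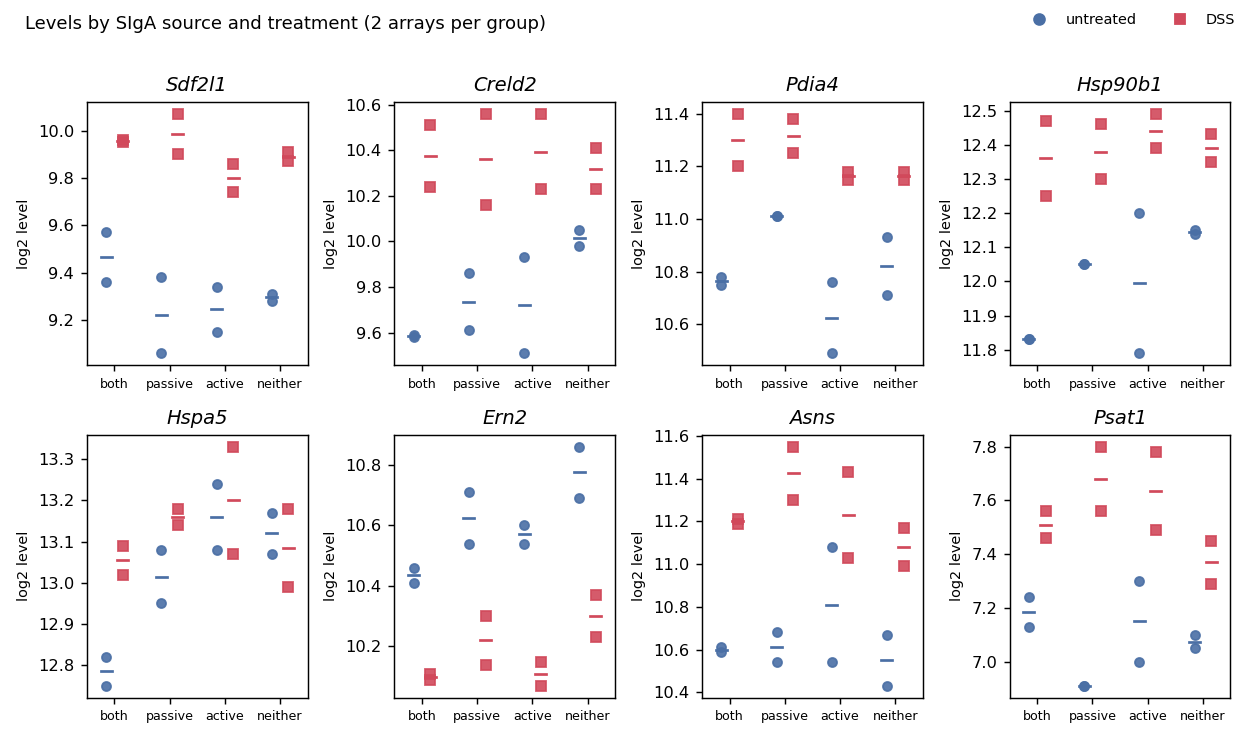
Level of 8 genes (y axis, log2) in the 8 groups, untreated and DSS side by side for each SIgA group, with a circle (untreated) or square (DSS) for each array and a bar for the mean of 2. Sdf2l1, Creld2, Pdia4 and Hsp90b1 separate the treatments completely upward and Ern2 downward, Hspa5 overlaps, and Asns overlaps through an untreated array at 11.08.

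Markers of some other cells moved with DSS beside these rises, where 6.40% of all genes rose and 6.73% fell. The mean level of 9 neutrophil markers was 6.14 to 6.52 in untreated and 6.94 to 7.50 in DSS arrays, and 7 of the 9 rose. Mpo and Elane did not pass, with differences of 0.05 and 0.00. Ly6g, which rose, lay at 11.75 to 12.76 and every other marker of this list at 8.01 or less. The cells from which Ly6g was read were not tested. The mean of 11 monocyte and macrophage markers went from 6.11 to 6.43 to 6.64 to 7.03, with 8 rises. The mean of 7 fibroblast markers was 6.82 to 7.47 untreated and 7.26 to 7.56 after DSS. Of these 2 rose, Dcn (0.78 ± 0.13, adjusted p = 0.00180) and Vim (0.81 ± 0.10, adjusted p = 1.50e-04). The other 5, Col1a1, Col1a2, Col3a1, Lum and Pdgfra, did not pass, with differences of -0.04 to 0.14. The mean of 7 T cell markers was 5.80 to 6.31 untreated and 5.77 to 6.13 after DSS, and none passed. The mean of 9 plasma and B cell markers was 5.98 to 6.54 untreated and 5.86 to 6.24 after DSS. None rose, 7 did not pass and 2 fell, Igha (-0.61 ± 0.14, adjusted p = 0.0143) and Sdc1 (-0.33 ± 0.05, adjusted p = 7.54e-04). Without the untreated group that stood apart 1 fall was left. Sdc1 lay at 10.20 to 10.80 and every other marker of this list at 6.99 or less. The cells from which Sdc1 was read were not tested. Of 11 immediate early genes, which respond quickly to handling, 5 fell and 1 rose, with a median difference of -0.18. The means of 8 epithelial markers (12.16 to 12.31 and 12.15 to 12.30) and of 8 goblet markers (11.79 to 12.16 and 11.81 to 12.14) overlapped, and that of 7 absorptive markers was 12.09 to 12.38 untreated and 11.73 to 12.18 after DSS, with 4 falls. The part of these cells and of handling in the changes of the 32 genes was not tested.

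None of the 6 genes of entry and disposal passed the test in limma, with a median difference of 0.17. An unadjusted p under 0.05 was found for 4 of them, and for 5277 of all 19938 genes. Syvn1, the ubiquitin ligase of disposal from the endoplasmic reticulum, came nearest, at 0.20 ± 0.06 (adjusted p = 0.0513), with untreated levels of 9.34 to 9.72 (median 9.56) and DSS levels of 9.58 to 9.88 (median 9.77). Derl3, of the retrotranslocation machinery, had 0.23 ± 0.07 (adjusted p = 0.0613), and Sel1l, the adaptor of Syvn1, had 0.16 ± 0.06 (adjusted p = 0.0941). Herpud1, a scaffold of the same complex, had 0.06 ± 0.07 (adjusted p = 0.701), and Edem1, which marks misfolded glycoproteins, had -0.05 ± 0.07 (adjusted p = 0.759). Sec61b, a subunit of the translocation channel, was read by 3 probe sets, with differences of 0.18, 0.14 and 0.12, none of which passed.

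The 4 sensors went different ways. Ern2, the sensor restricted to mucus-secreting epithelia, was 10.41 to 10.86 (median 10.57) in untreated and 10.07 to 10.37 (median 10.15) in DSS arrays. All DSS arrays lay below all untreated ones, and the difference was -0.42 ± 0.06 (adjusted p = 2.57e-04), a factor of 1.34. It was -0.45 (adjusted p = 0.00169) without the untreated group that stood apart. Goblet markers gave 1 rise, of the trefoil peptide Tff3 (0.38 ± 0.07, adjusted p = 0.00366), and 2 falls, of the secretory lineage factor Atoh1 (-0.39 ± 0.08, adjusted p = 0.00764) and of Clca1 (-0.27 ± 0.07, adjusted p = 0.0287), among 8 genes with a median difference of 0.05. The part of goblet cells in the fall of Ern2 was not tested. Atf6 rose by 0.25 ± 0.07 (adjusted p = 0.0249), from 9.26 to 9.65 (median 9.52) to 9.63 to 9.96 (median 9.71), but had an adjusted p of 0.107 at the same difference without that group. The ubiquitous sensor Ern1 (-0.12 ± 0.06, adjusted p = 0.256) and the kinase Eif2ak3 (-0.04 ± 0.07, adjusted p = 0.757) did not pass.

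The 3 transcription factors had DSS differences of 0.14 ± 0.06 for Xbp1 (adjusted p = 0.179), 0.00 ± 0.05 for Atf4 (95% interval -0.10 to 0.11) and 0.00 ± 0.06 for Ddit3 (95% interval -0.13 to 0.12). Xbp1 had untreated levels of 11.46 to 11.76 (median 11.64) and DSS levels of 11.59 to 11.88 (median 11.75). The average of Ddit3 joins groups of opposite sign: its difference was 0.33 ± 0.12 with passive SIgA only (adjusted p = 0.231) and -0.26 ± 0.12 with neither source (adjusted p = 0.546). Atf4 protein, which is controlled at translation, was not measured.

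Of the 5 Atf4 targets, the 2 enzymes of amino acid synthesis rose. Asns, asparagine synthetase, had untreated levels of 10.43 to 11.08 (median 10.60) and DSS levels of 10.99 to 11.55 (median 11.20), a difference of 0.59 ± 0.09 (adjusted p = 6.73e-04). Psat1, of serine synthesis, had 6.91 to 7.30 (median 7.08) and 7.29 to 7.80 (median 7.52), a difference of 0.47 ± 0.07 (adjusted p = 5.28e-04). Both kept the call without the untreated group that stood apart, at 0.59 (adjusted p = 0.0059) and 0.52 (adjusted p = 0.00224). Ppp1r15a, the phosphatase subunit that restores translation (0.21 ± 0.07, adjusted p = 0.0791), the glutathione-degrading enzyme Chac1 (0.35 ± 0.18, adjusted p = 0.240) and the pseudokinase Trib3 (0.02 ± 0.11, adjusted p = 0.935) did not pass.

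The C/EBP-ATF response element, through which Atf4 is known to act, was searched as TGATGNAA on both strands. It is shown for the Atf4 targets Asns and Chac1 and for Herpud1.
Asns, chr6:7693210-7693247, minus strand: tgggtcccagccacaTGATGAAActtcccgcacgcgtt
Chac1, chr2:119351034-119351071, plus strand: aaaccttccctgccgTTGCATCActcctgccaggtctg
Herpud1, chr8:94386302-94386339, plus strand: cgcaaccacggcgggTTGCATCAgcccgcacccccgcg
Capitals mark the match, which in Chac1 and Herpud1 reads on the other strand. These short letters were in 4 of the 28 genes (Trib3 is the fourth) and in 1219 of the 27025 genes (4.51%). The windows of the targets Psat1, which rose with DSS, and Ppp1r15a held no match, while Chac1 and Trib3, which did not pass, held one. Of the 565 measured genes with a match, 34 rose and 48 fell with DSS, beside 6.40% and 6.73% of all genes tested.

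Further genes of the same pathways, in 4 lists, were read beside the 32. Among all genes tested, 6.40% rose and 6.73% fell with DSS. Of 23 other folding genes 5 rose and none fell (median 0.08), led by the oxidase Ero1a (0.61 ± 0.06, adjusted p = 3.63e-05) and the reductase Dnajc10 (0.46 ± 0.08, adjusted p = 0.00244), with Txndc11 (0.27 ± 0.07, adjusted p = 0.0221) and the isomerase P4hb (0.17 ± 0.05, adjusted p = 0.0336) among them. Of 27 other genes of entry and disposal 14 rose and none fell (median 0.21). Those with the smallest p belong to translocation and signal removal: Ssr3 (0.37 ± 0.06, adjusted p = 0.00153), Sec61a1 (0.27 ± 0.05, adjusted p = 0.00403), Sec11c (0.50 ± 0.10, adjusted p = 0.00538) and Ssr1 (0.29 ± 0.06, adjusted p = 0.00588). Without the untreated group that stood apart the rises were 2 of 23 and 5 of 27, beside 2.88% of all genes. Among the genes named, Sec11c then had 0.26 (adjusted p = 0.281), Ssr1 0.23 (adjusted p = 0.0686), Txndc11 0.27 (adjusted p = 0.0855) and P4hb 0.19 (adjusted p = 0.086), while the other 4 passed.

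Of 16 other sensors and factors 1 rose, the kinase Eif2ak2 (0.32 ± 0.09, adjusted p = 0.0402), and 1 fell, Creb3l4 (-0.28 ± 0.08, adjusted p = 0.0387). Neither gene passed without that group. A count of 1 of 16 is near the shares of all genes that rose and fell (6.40% and 6.73%). Atf3 (-0.17 ± 0.05, adjusted p = 0.0635) and Creb3 (0.15 ± 0.05, adjusted p = 0.0710) did not pass. Of 35 other amino acid stress genes 9 rose and 3 fell (median 0.10). Without that group 7 rose and 1 fell, where 2.88% and 3.19% of all genes did. The cystine transporter Slc7a11 had the smallest p of this list, at 1.63 ± 0.15 (adjusted p = 1.33e-05), followed by the secreted glycoprotein Stc2 (0.53 ± 0.06, adjusted p = 3.95e-05), the tryptophan tRNA synthetase Wars (0.42 ± 0.05, adjusted p = 1.31e-04) and the stress cofactor Nupr1 (0.50 ± 0.07, adjusted p = 3.57e-04). Slc7a11 and Wars also respond to oxidative and interferon signals, respectively.

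**Figure D3:**
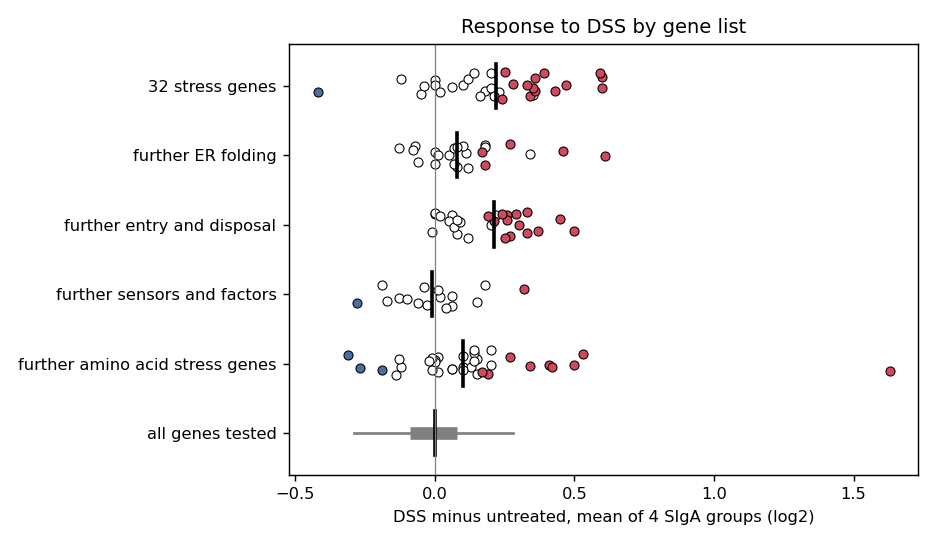
Difference between DSS and untreated arrays (log2) for each gene of the 32 and of the 4 further lists, with red for genes that rose, blue for genes that fell, white for genes that did not pass, and a black bar for the median. The grey box and line at the foot span the middle 50% and 90% of all genes tested. The bars lie at 0.08 and 0.21 for the folding and the entry and disposal lists and at -0.01 and 0.10 for the sensor and amino acid lists.

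The DSS effect was next taken within each SIgA group, with 2 arrays against 2 and the spread pooled over all groups. With passive and active SIgA 8 of the 32 genes rose (3.56% of all genes did), with the passive source alone 4 (0.893%), with the active source alone none (0.622%) and with neither 1 (0.492%). With active SIgA only, limma left 14 of the 32 at an unadjusted p under 0.05, and 2558 of all 19938 genes. None of the 32 fell in any of the 4 groups, where 6.53%, 1.08%, 0.376% and 0.627% of all genes fell. The median differences over the 32 were 0.27, 0.26, 0.21 and 0.14, beside 0.04, 0.03, -0.06 and 0.01 over all genes.

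Sdf2l1 rose in 3 groups. Its arrays went from 9.36 and 9.57 to 9.96 and 9.95 with both sources of SIgA (0.49 ± 0.13, adjusted p = 0.0301), from 9.06 and 9.38 to 9.90 and 10.07 with passive only (0.77 ± 0.13, adjusted p = 0.00698) and from 9.28 and 9.31 to 9.91 and 9.87 with neither (0.60 ± 0.13, adjusted p = 0.0450). With active only they went from 9.15 and 9.34 to 9.74 and 9.86 (0.55 ± 0.13, adjusted p = 0.0685). Asns passed with both (0.60 ± 0.18, adjusted p = 0.0499) and with passive only (0.81 ± 0.18, adjusted p = 0.0345). Hyou1 (0.49 ± 0.11, adjusted p = 0.0457) and Psat1 (0.77 ± 0.14, adjusted p = 0.0100) passed with passive only. With both sources the other calls were Dnajb11 (0.88), Dnajc3 (0.82), Creld2 (0.79), Hsp90b1 (0.53), Pdia4 (0.53) and Canx (0.36), in a comparison whose untreated arrays are those that stood apart. Ern2 had differences of -0.33, -0.40, -0.46 and -0.48 in the order both, passive only, active only and neither, none of which passed alone.

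**Figure D4:**
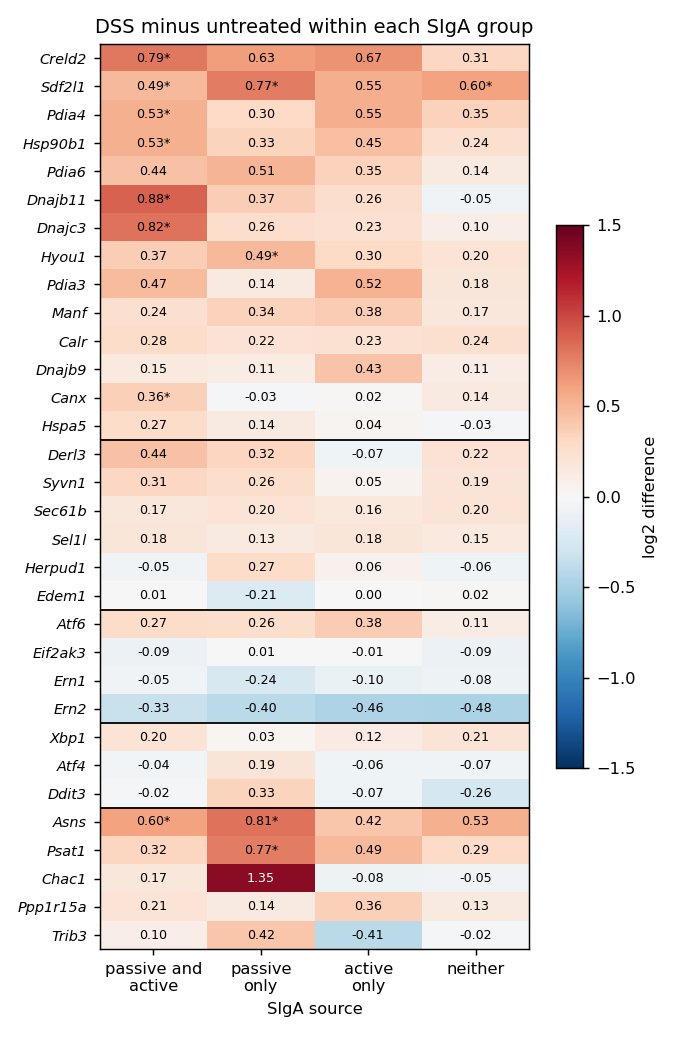
Difference between DSS and untreated arrays (colour, log2) for the 32 genes (rows) in the 4 SIgA groups (columns), with an asterisk where the adjusted p was under 0.05. Sdf2l1 carries an asterisk in 3 columns, and the column of active SIgA only has none.

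These counts do not show that the groups differed. In the tests of the difference itself, the DSS effect without SIgA minus that with it, none of the 32 passed for passive SIgA (0.115% of all genes were higher and 0% lower) or for active SIgA (0.838% and 0.00502%). None passed for passive SIgA within Pigr+/- offspring (1.02% and 0.0502%) or within Pigr-/- offspring (0% and 0%). At an unadjusted p under 0.05 limma had 4, 1, 3 and 3 of the 32, and 1622, 2388, 2018 and 851 of all 19938 genes. The 4 for passive SIgA were Chac1 (-0.82 ± 0.35, adjusted p = 0.576), Dnajb11 (-0.52 ± 0.20, adjusted p = 0.524), Dnajc3 (-0.38 ± 0.15, adjusted p = 0.537) and Ddit3 (-0.32 ± 0.12, adjusted p = 0.489). Within Pigr-/- offspring Chac1 had -1.40 ± 0.50 and Ddit3 -0.59 ± 0.17 (adjusted p = 0.902), and neither passed. Dnajb11 had -0.42 ± 0.29 and Dnajc3 -0.17 ± 0.21 there. Within Pigr+/- offspring, whose comparison includes the untreated pair that stood apart, they had -0.61 ± 0.29 and -0.58 ± 0.21. With passive SIgA only, the DSS difference of Chac1 was 1.35 ± 0.35 (adjusted p = 0.0788), from 8.40 and 8.01 to 9.97 and 9.14.

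Absence of passive SIgA went with higher Ddit3 and Chac1 in the untreated colon. Of the 32 genes these 2 rose and none fell, where 0.777% of all genes rose and 1.80% fell. Ddit3, the factor CHOP that is linked to cell death under lasting stress, was 8.63 and 8.61 with both sources and 8.63 and 8.76 with passive only. It was 9.09 and 9.12 with active only and 9.32 and 9.09 with neither. All 4 untreated arrays of offspring of Pigr+/- dams lay below all 4 of offspring of Pigr-/- dams, and the difference was 0.50 ± 0.08 (adjusted p = 0.00846).

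Chac1 was 8.52 and 8.69 with both sources, 8.40 and 8.01 with passive only, 9.25 and 10.15 with active only and 9.70 and 9.31 with neither. The arrays separated in the same way, with a difference of 1.20 ± 0.25 (adjusted p = 0.0268), a factor of 2.29. The disposal gene Herpud1 (0.33 ± 0.10, adjusted p = 0.0965) and Atf4 itself (0.12 ± 0.07, adjusted p = 0.362) did not pass. Nor did the other Atf4 targets. Trib3 had 0.45 ± 0.16 (adjusted p = 0.137) and Ppp1r15a -0.05 ± 0.10 (adjusted p = 0.796). Asns and Psat1, which rose with DSS, had 0.07 ± 0.13 (adjusted p = 0.768) and 0.06 ± 0.10 (adjusted p = 0.743). In the amino acid list Cars (0.61 ± 0.15, adjusted p = 0.0478) and Mthfd2 (0.59 ± 0.14, adjusted p = 0.0488) were higher, and in the entry list Ssr3 was lower (-0.48 ± 0.09, adjusted p = 0.0144), these 3 being named after their values were seen. Absorptive colonocyte markers moved with the same arrays: the mean of 7 genes was 12.09 to 12.10 in the 4 untreated arrays with passive SIgA and 12.16 to 12.38 in the 4 without it. Of these 7 markers 6 were higher without passive SIgA, with a median difference of 0.16, and Slc9a3, a sodium-proton exchanger, passed (0.67 ± 0.16, adjusted p = 0.0492). Their part in the rises of Ddit3 and Chac1 was not tested.

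**Figure D5:**
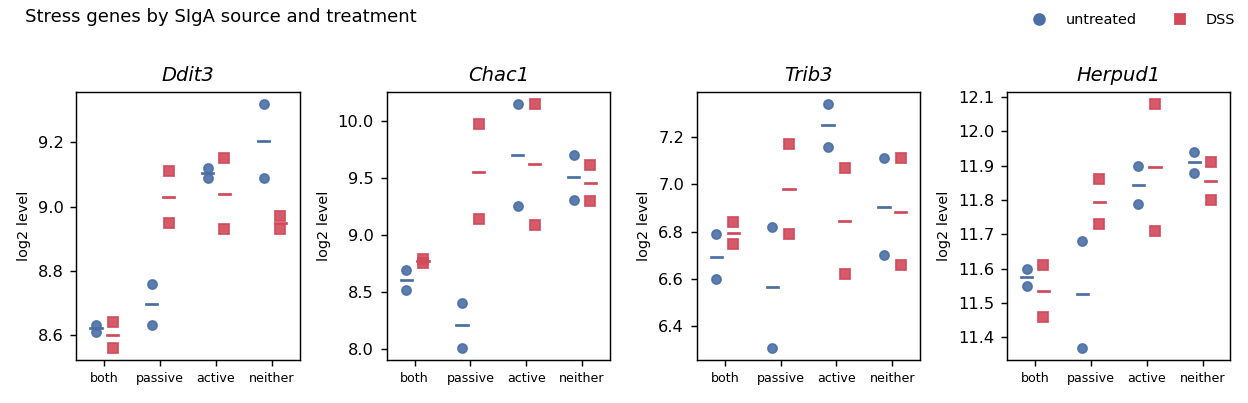
Level of Ddit3, Chac1, Trib3 and Herpud1 (y axis, log2) in the 8 groups, with a circle (untreated) or square (DSS) for each array and a bar for the mean of 2. In untreated arrays Ddit3 lies at 8.61 to 8.76 with passive SIgA and at 9.09 to 9.32 without it.

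The rise was seen at like size in both offspring genotypes. In untreated Pigr+/- offspring the difference of Ddit3 was 0.48 ± 0.12 (adjusted p = 0.0323, where 1.57% of all genes rose and 3.84% fell), and in Pigr-/- offspring it was 0.51 ± 0.12 (adjusted p = 0.222, where 0% of all genes passed). Chac1 had 1.09 ± 0.35 (adjusted p = 0.0903) and 1.30 ± 0.35 (adjusted p = 0.334). Derl3 passed in Pigr+/- offspring (0.64 ± 0.15, adjusted p = 0.0260) and had 0.09 ± 0.15 in Pigr-/- offspring. Without the untreated group that stood apart, this effect can be read in Pigr-/- offspring alone, where neither gene passed, so no further check of its size remains.

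After DSS no gene of all those tested passed for passive SIgA. At an unadjusted p under 0.05 limma had 788 of the 19938 genes, less than the share of 0.05 that would be reached with no difference. Ddit3 had 0.18 ± 0.08 and Chac1 0.38 ± 0.25. By genotype, Ddit3 was 8.64 and 8.56 with both sources and 8.93 and 9.15 with active only, a difference of 0.44 ± 0.12, and it was 9.11 and 8.95 with passive only and 8.93 and 8.97 with neither, a difference of -0.08 ± 0.12. Over all arrays together Ddit3 rose without passive SIgA (0.34 ± 0.06, adjusted p = 0.0207), the only 1 of the 32 to do so (0.326% of all genes rose and 0.637% fell), and Chac1 had 0.79 ± 0.18 (adjusted p = 0.0555).

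Absence of active SIgA changed none of the 32 genes by the same test. Over all arrays 0.0903% of all genes rose and 1.28% fell, in untreated arrays 1.57% and 5.92%, and after DSS 0% and 0.00502%. At an unadjusted p under 0.05 limma had 2, 4 and 0 of the 32. Of all 19938 genes it had 3606, 5580 and 330, so the share among the 32 was in no case the higher. Ern2 had 0.18 ± 0.06 over all arrays (adjusted p = 0.133), and in untreated arrays Dnajb11 had 0.41 ± 0.14 (adjusted p = 0.0953) and Dnajc3 0.28 ± 0.11 (adjusted p = 0.117). The untreated comparison, with its shares of all genes, includes the pair that stood apart. Untreated group means of Dnajb11 were 9.10 in that pair, 9.81 with passive only, 9.80 with active only and 9.91 with neither. Those of Dnajc3 were 9.40, 9.92, 9.87 and 9.91 in the same order.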

How the data were processed

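RNA of colonic epithelial cells was measured on Affymetrix whole-transcript arrays, 16 in all. The deposited values are log2 levels per probe set, made by the authors with RMA per the submitters' processing notes; its version and settings are not given in the sources used here, and how the arrays were scaled can change small differences. Depth has no meaning for arrays, and their number limits the precision. Of 35557 probe sets, 21789 had 1 gene in the platform annotation, 1621 several and 12147 none. For each of the 19938 genes the one-gene probe set of highest mean was kept.

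A mean per group was fitted with limma 3.58.1 in R 4.3.3 over all 16 arrays, with moderated variances (8 residual and 5.03 prior degrees of freedom). Contrasts were DSS minus untreated, SIgA absent minus present, and their interactions. P-values were two-sided and Benjamini-Hochberg adjusted over all genes, with 0.05 as the threshold. The median SE was 0.08 for the averaged DSS difference and 0.15 within 1 group. The fit was also run on simulated data with independent noise. These held no arrays that stood apart and no deviation shared between arrays, so they cannot show how such arrays affect the calls. Scan dates and slides were not used here. The members, lists and marker genes were chosen with earlier results of these data known. Genes outside the 32 were named as the 4 of smallest p in each list, unless stated. Promoter sequences come from RefSeq, assembly GRCm38.p6. The alternatives tried were other variance models, array weights, scalings, filters, thresholds, a replicate block and left-out arrays.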

Additional observations from a re-analysis of the deposited data

How the results depend on the processing

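With 2 pools per group, calls moved more than sizes. The 15 calls for the averaged DSS effect became 3 when a 1.5-fold change was also asked for and 8 without the 3 arrays that stood apart (11 to 18 leaving out 1 array). Within groups, the 8 calls with both SIgA sources became 5 with array weights, 4 median-centred, 13 at an adjusted p under 0.1, 4 at 1.5-fold and 1 fitted on those arrays alone (0 to 9). The 4 with passive only became 7 with a variance trend or array weights and 2 median-centred or without the untreated group that stood apart (0 to 5). The 0 with active only became 3 with a replicate block, trend, quantile scaling, dim-probe filter or 0.1 threshold (0 to 6). The 1 with neither became 2 with trend, weights, filter or 0.1, and 0 unmoderated, median-centred or without the group (0 to 1).

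For passive SIgA absent, the 1 call over all arrays became 2 with the block, median-centred or quantile, 3 with trend or 0.1, and 0 unmoderated, at 1.5-fold, without the group or without 3 arrays (0 to 3). The 2 untreated calls became 1 unmoderated or at 1.5-fold, 4 at 0.1, and 0 without the group, without 3 arrays or within Pigr-/- offspring (1 to 2), the last chosen after seeing the data. These 3 settings rest on the same Pigr-/- arrays. For active SIgA absent, the 0 untreated calls became 2 with the replicate block and 1 at 0.1 (0 to 3). The deviations of same-numbered arrays correlated at -0.30 to 0.67 (median 0.08), above 0.1 in 14 of 28 group pairs. The labels name no animal or batch shared by same-numbered arrays, so the main fit did not pair them. A deviation shared by same-numbered arrays was therefore not modelled there. As a hint from the data, the mean of the 14 chaperones was higher in replicate 2 in 8 of 8 groups, and those of the other folding and entry lists in 7 of 8. The DSS sign of Atf4 turned median-centred (-0.02) and quantile-scaled (-0.01), of Trib3 median-centred (0.00), without the group (0.00) and without 3 arrays (-0.03), and of Ddit3 without the group (0.00). Leaving out 1 array gave -0.01 to 0.02 for Atf4, -0.03 to 0.03 for Ddit3, -0.04 to 0.09 for Trib3 and -0.09 to 0.00 for Eif2ak3. The cause was not tested.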
